A study of Caenorhabditis elegans with 12 samples.

Results

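The genes described here are 8 regulators of the mitochondrial unfolded protein response (UPRmt) of the nematode Caenorhabditis elegans. They are the transcription factor genes atfs-1 and dve-1, ubl-5 for the cofactor of DVE-1, haf-1 for a mitochondrial peptide exporter, and the chromatin factor genes lin-65, met-2, jmjd-1.2 and jmjd-3.1. They were chosen by their known roles and not by their values, though with earlier results of these data known. They were found by WormBase identifier as 8 of the 46920 loci of the count table. All 8 are among the 14867 genes that passed the filter on low counts and were tested.

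RNA of whole worms was sequenced in 12 libraries, 3 in each of 4 groups: lin-40(yth27) on cco-1 RNAi, lin-40(yth27) on EV, WT on cco-1 RNAi and WT on EV. All animals were kept on their bacteria from hatch at 20°C and were taken as L4 larvae, and polyA RNA was selected. WT is the N2 strain. The lin-40(yth27) allele is a point mutation, found in a chemical mutagenesis screen of the study, in the gene for a subunit of NuRD, a complex that remodels nucleosomes and deacetylates histones. It is a single allele, and the labels name this genotype alone, while the study also kept the allele in strains with a dve-1::gfp transgene. EV bacteria carry the empty feeding vector. The cco-1 RNAi bacteria, which the labels write as EV+cco-1, target the transcript of a subunit of cytochrome c oxidase. The study describes its data in general as biological replicates. It does not state that the 3 libraries of a group came from separate cultures, so p-values measure the spread between these libraries only.

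The UPRmt is a transcriptional program that raises mitochondrial chaperones and proteases when protein folding or import in mitochondria is disturbed. Its known regulators act at several points: HAF-1 exports peptides from the matrix, ATFS-1 moves to the nucleus when mitochondria no longer import it, and DVE-1 with UBL-5 binds promoters of chaperone genes. MET-2 and LIN-65 act on histone H3 lysine 9 methylation, and JMJD-1.2 and JMJD-3.1 remove histone methyl groups that keep genes silent. Most of these steps are known as changes in the place or activity of the protein, and the libraries measure the transcripts.

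The library totals lay between 18553449 and 22538076 counts. Levels are given as CPM (counts per 1 000 000 counts of the library) with library sizes adjusted by the TMM method (trimmed mean of M values), and levels of different genes are compared only per kilobase of exon. Unless another fit is named, every fold change is on the log2 scale from a single edgeR quasi-likelihood model of the 12 libraries, the main edgeR model. The threshold was 0.05 for the adjusted p, by the method of Benjamini and Hochberg (BH) over all genes tested. The transcript of cco-1, listed as cox-5B, was lower on cco-1 RNAi in both genotypes. Its log2 fold change was −0.92 in lin-40(yth27) (standard error 0.16, adjusted p = 0.0187) and −1.63 in WT (standard error 0.16, adjusted p = 3.76e-04). In lin-40(yth27) the call was lost when replicate 1 or 2 on cco-1 RNAi or any of the 3 EV libraries was left out (adjusted p 0.0587 to 0.0991). The fall was smaller in lin-40(yth27), with a difference of 0.71 between the responses (standard error 0.22, unadjusted p = 0.00768, adjusted p = 0.394). On cco-1 RNAi cox-5B was 0.46 higher in lin-40(yth27) than in WT (standard error 0.16, adjusted p = 0.218). The part of this in the values of the regulators was not tested. The lin-40 transcript does not check the genotype, since a point mutation leaves it in place. It had 111 ± 18.6 CPM in lin-40(yth27) and 115 ± 29.5 CPM in WT on EV (SD, n = 3 each).

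No regulator transcript passed the threshold in any of the 5 comparisons of the design in the main edgeR model. Some alternative fits, with edgeR or with DESeq2, called regulators and are given below. Those nearest to it were atfs-1 and met-2 in WT, where both were higher on cco-1 RNAi than on EV in all 3 libraries, by 1.29-fold and 1.36-fold. In lin-40(yth27) neither was higher on cco-1 RNAi, at 0.848-fold and 0.883-fold. dve-1 stood nearly level upon cco-1 RNAi in both genotypes. Its 3 lin-40(yth27) libraries on EV were all above the 3 of WT, as were those of 13.4% of all genes, and it did not pass (adjusted p = 0.297). In whole worms, fewer cells of a type and less RNA per cell cannot be told apart.

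**Figure D1:**
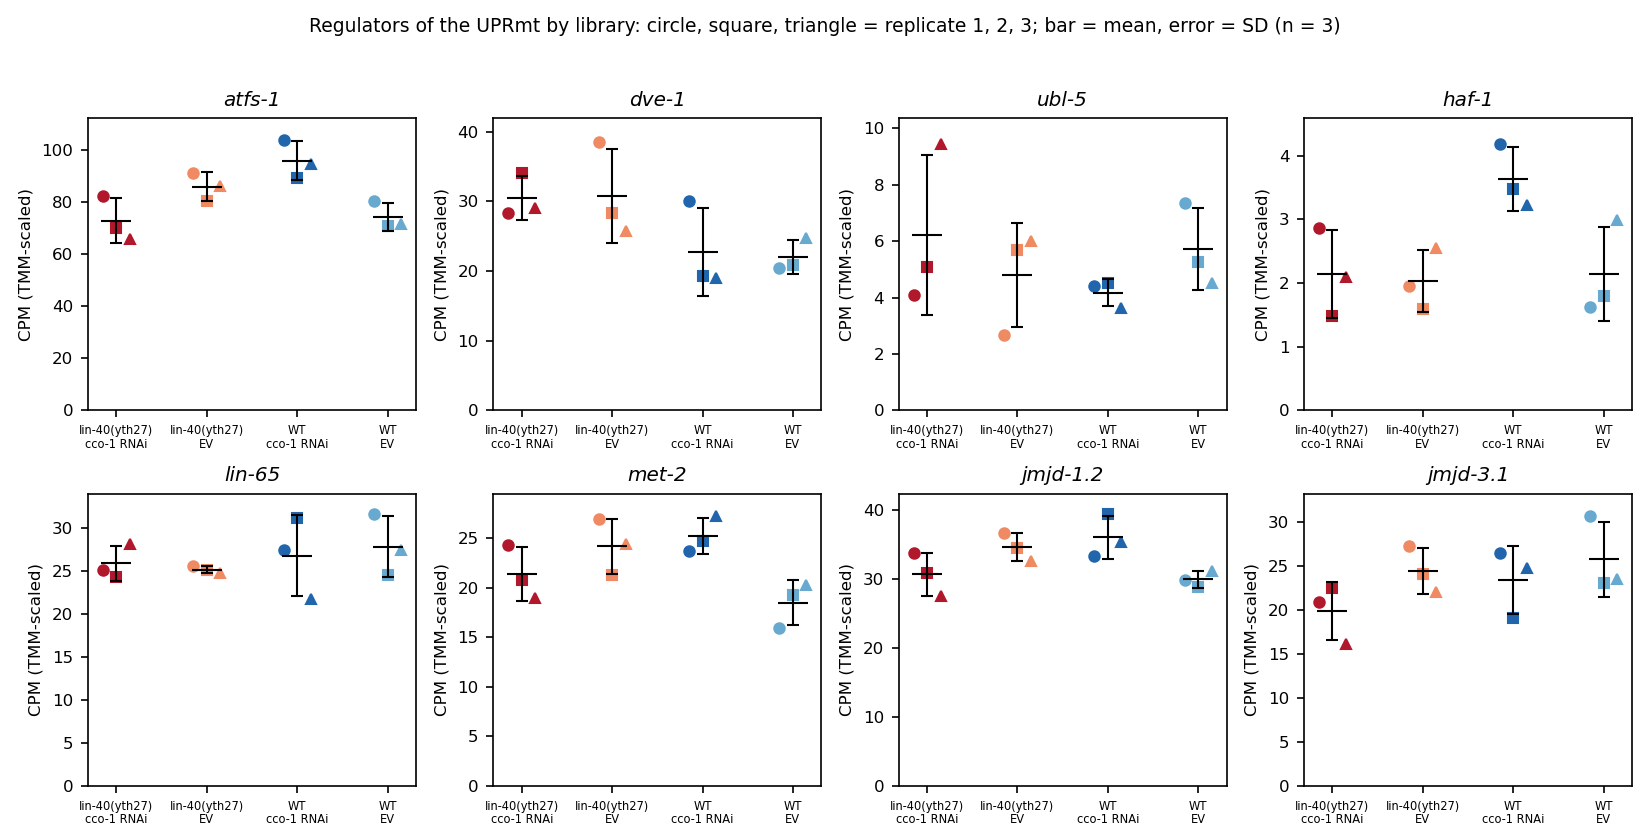
Level of each regulator in every library, in TMM-scaled CPM from 0 on the y axis, with 1 panel per gene and the 4 groups along the x axis. Circles, squares and triangles are replicates 1, 2 and 3, bars are means and error bars SDs (n = 3). For atfs-1 the 3 WT libraries on cco-1 RNAi lie between 89.4 and 104 CPM and the 3 on EV between 71.1 and 80.6 CPM, while the lin-40(yth27) groups overlap.

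Per kilobase of exon, atfs-1 was the most abundant of the 8 transcripts, with 42.8 ± 5.94 CPM per kb over the 12 libraries (SD). The short ubl-5 transcript came next with 16.0 ± 5.47 CPM per kb. jmjd-1.2 followed with 10.7 ± 1.11, lin-65 with 10.1 ± 1.09 and dve-1 with 7.996 ± 1.83 CPM per kb. jmjd-3.1 had 5.997 ± 0.976, met-2 had 5.40 ± 0.830 and haf-1 had 1.18 ± 0.412 CPM per kb. atfs-1, ubl-5, dve-1 and haf-1 held ranks 1, 2, 5 and 8 in every group. lin-65 stood above jmjd-1.2 in WT on EV alone, and jmjd-3.1 stood above met-2 on EV in both genotypes. The neighbours jmjd-1.2 and lin-65, and jmjd-3.1 and met-2, differed by less than their SDs, and ubl-5 and jmjd-1.2 by less than the SD of ubl-5.

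**Figure D2:**
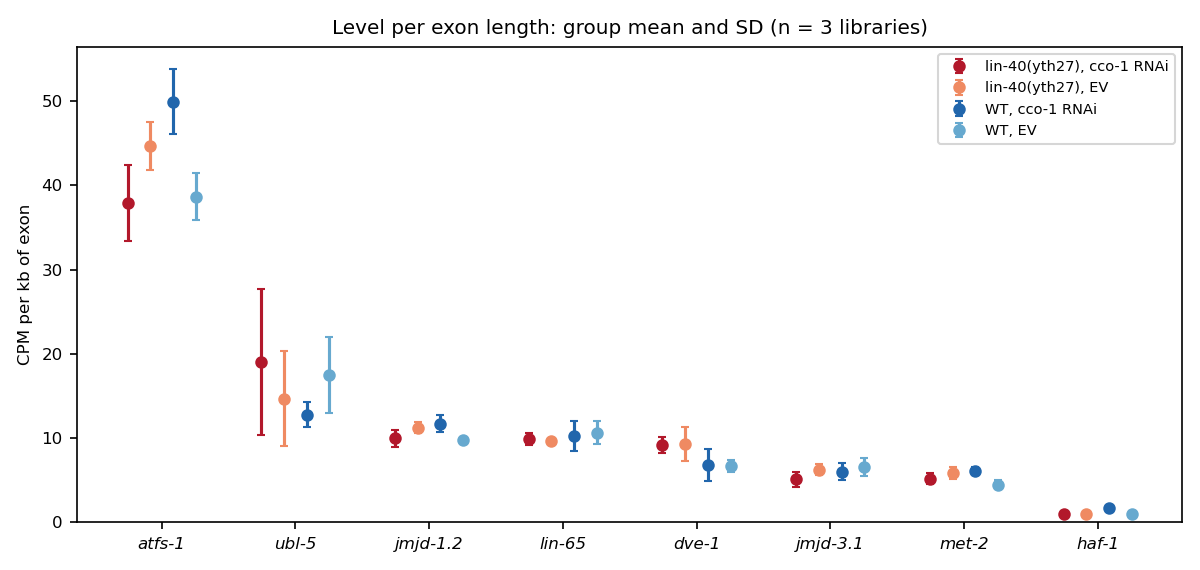
Level of the 8 regulators per kilobase of exon (CPM per kb, y axis from 0), ordered from highest to lowest, with the mean and SD of each group (n = 3 libraries). atfs-1 stands above all others in every group and haf-1 below, and the widest error bar is that of ubl-5 in lin-40(yth27) animals on cco-1 RNAi.

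The spread between replicates set how far each gene could be read. The biological coefficient of variation, the replicate spread that edgeR estimates beyond counting noise, ran from 12.4% for jmjd-1.2 to 31.4% for ubl-5. haf-1 had 29 to 81 counts in a library, where counting noise alone is 13.9% at its mean count, and ubl-5 had 51 to 149 counts (9.72%). atfs-1 had 1041 to 2110 counts (2.42%). The values of 13.9%, 9.72% and 2.42% cover counting error only. The values of all 8 genes were whole numbers in the 12 libraries.

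atfs-1 (WBGene00013878, chromosome V of the WBcel235 assembly, 14193663 to 14197700, plus strand) is a protein-coding gene with 1926 exon bases. Its product is the bZIP transcription factor at the head of the pathway, which healthy mitochondria import and degrade. The lin-40(yth27) libraries had 82.7, 70.2 and 66.0 CPM on cco-1 RNAi, against 91.5, 80.4 and 86.2 CPM on EV. The WT libraries had 104, 89.4 and 94.8 CPM on cco-1 RNAi, against 80.6, 71.1 and 71.7 CPM on EV. The WT libraries on cco-1 RNAi thus lay above those of WT on EV and above those of lin-40(yth27) on cco-1 RNAi, with no overlap. The lin-40(yth27) groups overlapped.

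The log2 fold change of atfs-1 upon cco-1 RNAi was −0.24 in lin-40(yth27) (standard error 0.12, 95% interval −0.49 to 0.02, adjusted p = 0.462). In WT it was 0.37 (standard error 0.12, 95% interval 0.11 to 0.62, unadjusted p = 0.00860, adjusted p = 0.0909). The difference between these responses was −0.61 (standard error 0.16, 95% interval −0.97 to −0.25). It had an unadjusted p of 0.00335, rank 118 of all genes tested, and an adjusted p of 0.394. Between the genotypes atfs-1 differed by 0.21 on EV (adjusted p = 0.427) and by −0.40 on cco-1 RNAi (standard error 0.12, 95% interval −0.65 to −0.14, adjusted p = 0.168). The calls turned on the fit: in WT it passed with only genes of at least 10 CPM in 3 libraries (adjusted p = 0.0391), and on cco-1 RNAi it passed between the genotypes with DESeq2 (adjusted p = 0.0473). DESeq2 called 391 genes in all between the genotypes on cco-1 RNAi.

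dve-1 (WBGene00022861, chromosome X, 427035 to 433812, minus strand, 3319 exon bases) encodes the homeodomain protein that gathers in nuclei of stressed animals. In lin-40(yth27) animals dve-1 had 28.3, 34.1 and 29.0 CPM on cco-1 RNAi, against 38.5, 28.3 and 25.7 CPM on EV. WT animals had 30.1, 19.3 and 19.05 CPM on cco-1 RNAi, against 20.4, 20.9 and 24.8 CPM on EV. Replicate 1 of WT on cco-1 RNAi stood well above the other two, and lin-40(yth27) EV replicate 1 was the highest of the 12 libraries. The response to cco-1 RNAi was −0.01 in lin-40(yth27) (95% interval −0.45 to 0.42, adjusted p = 0.985) and 0.05 in WT (95% interval −0.39 to 0.49, adjusted p = 0.919). These intervals leave room for 1.34-fold and 1.40-fold higher transcript on cco-1 RNAi. Without WT cco-1 replicate 1 the WT value was −0.20.

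Between the genotypes, dve-1 was at 1.40-fold on EV, where all 3 lin-40(yth27) libraries (25.7 to 38.5 CPM) lay above all 3 WT libraries (20.4 to 24.8 CPM). The log2 fold change was 0.48 (standard error 0.20, 95% interval 0.04 to 0.92, unadjusted p = 0.0344, adjusted p = 0.297). On cco-1 RNAi it was 0.42 (95% interval −0.02 to 0.86, adjusted p = 0.343), and the groups overlapped through WT cco-1 replicate 1. The difference between the responses was −0.06 (95% interval −0.68 to 0.56).

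ubl-5 (WBGene00006726, chromosome I, 5607826 to 5608841, minus strand) has 327 exon bases and encodes a small ubiquitin-like protein that forms a complex with DVE-1. Its lin-40(yth27) levels were 4.10, 5.10 and 9.44 CPM on cco-1 RNAi, against 2.69, 5.71 and 6.02 CPM on EV. Its WT levels were 4.40, 4.51 and 3.64 CPM on cco-1 RNAi, against 7.37, 5.28 and 4.53 CPM on EV. It is the single regulator whose 3 WT libraries on cco-1 RNAi all lay below the 3 on EV (13.3% of all genes), by a margin of 4.51 against 4.53 CPM. Its response was 0.36 in lin-40(yth27) (95% interval −0.43 to 1.15, adjusted p = 0.761) and −0.45 in WT (95% interval −1.24 to 0.34, adjusted p = 0.529). The lin-40(yth27) value rested on a single library, being −0.06 without cco-1 replicate 3. The difference of the responses was 0.81 (95% interval −0.31 to 1.93, adjusted p = 0.529).

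haf-1 (WBGene00001811, chromosome IV, 17376427 to 17379310, plus strand, 2108 exon bases) encodes an ABC transporter of the inner mitochondrial membrane. haf-1 had 2.87, 1.48 and 2.09 CPM in lin-40(yth27) animals on cco-1 RNAi, against 1.95, 1.59 and 2.55 CPM on EV. Its WT libraries had 4.19, 3.48 and 3.23 CPM on cco-1 RNAi, against 1.63, 1.81 and 2.99 CPM on EV. The 3 WT libraries on cco-1 RNAi were the highest of all 12, and the other 3 groups overlapped one another. The WT response was the largest among the 8 genes at 1.69-fold, a log2 fold change of 0.76 (standard error 0.32, 95% interval 0.06 to 1.47, unadjusted p = 0.0367, adjusted p = 0.202). In lin-40(yth27) it was 0.08 (95% interval −0.63 to 0.80). Between the genotypes on cco-1 RNAi haf-1 was at 0.592-fold (log2 fold change −0.76, 95% interval −1.46 to −0.05, adjusted p = 0.298).

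haf-1 shares 64 exon bases with C30H6.9 on the opposite strand, which had 6270 counts in the 12 libraries. Alignment was in an orientation mode, but no source used here states whether the counting was by strand, and reads in those bases cannot be assigned with certainty. No other regulator overlaps an annotated gene in Ensembl release 115.

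Among the chromatin factors, met-2 (WBGene00019883, chromosome III, 8375300 to 8380848, plus strand, 4131 exon bases) encodes the H3K9 methyltransferase that supplies lower methylation states. met-2 stood at 24.3, 20.8 and 18.9 CPM in lin-40(yth27) animals on cco-1 RNAi, against 26.9, 21.3 and 24.4 CPM on EV. In WT it stood at 23.7, 24.7 and 27.3 CPM on cco-1 RNAi, against 16.0, 19.3 and 20.2 CPM on EV. WT on EV was thus the low group, with all 3 libraries below those of WT on cco-1 RNAi and of lin-40(yth27) on EV. The log2 fold change in WT was 0.45 (standard error 0.14, 95% interval 0.14 to 0.75, unadjusted p = 0.00859, adjusted p = 0.0908). In lin-40(yth27) it was −0.18 (standard error 0.14, 95% interval −0.49 to 0.13, adjusted p = 0.684).

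The responses of met-2 differed by −0.62 between the genotypes (standard error 0.20, 95% interval −1.06 to −0.19, unadjusted p = 0.00898, rank 337, adjusted p = 0.394). Between the genotypes on EV, met-2 was at 0.39 (standard error 0.14, 95% interval 0.08 to 0.69, unadjusted p = 0.0188, adjusted p = 0.246), and on cco-1 RNAi at −0.24 (adjusted p = 0.439). In WT it passed with DESeq2 (adjusted p = 0.0496), which called 1427 genes in all. With a replicate block that used the short-name numbers of the libraries both met-2 (adjusted p = 0.0232) and atfs-1 (adjusted p = 0.0255) passed in WT. The same block made the difference between the genotypes pass for atfs-1 (−0.75, adjusted p = 0.0307), met-2 (−0.82, adjusted p = 0.0351) and ubl-5 (1.204, adjusted p = 0.0497). That block called 2366 of the 14867 genes tested in WT and 1023 for the difference. Under it, replicate 2 of lin-40(yth27) on EV and replicate 1 on cco-1 RNAi stand alone. With the block by the number in the titles, which pairs the WT libraries in the same way, neither gene passed in WT (adjusted p = 0.0561 for met-2 and 0.0631 for atfs-1).

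lin-65 (WBGene00022149, chromosome I, 1755329 to 1766400, plus strand, 2615 exon bases) encodes the nuclear partner of MET-2. In lin-40(yth27) lin-65 had 25.2, 24.4 and 28.1 CPM on cco-1 RNAi, against 25.6, 25.2 and 24.8 CPM on EV. In WT lin-65 had 27.4, 31.1 and 21.8 CPM on cco-1 RNAi, against 31.6, 24.5 and 27.4 CPM on EV. The groups overlapped in every comparison, and the group means lay within 1.11-fold of one another. The response was 0.04 in lin-40(yth27) (95% interval −0.27 to 0.35) and −0.06 in WT (95% interval −0.37 to 0.26). The intervals run from 0.827-fold to 1.28-fold in lin-40(yth27) and from 0.774-fold to 1.19-fold in WT.

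jmjd-1.2 (WBGene00017920, chromosome IV, 4660991 to 4665212, plus strand, 3079 exon bases) and jmjd-3.1 (WBGene00017571, chromosome X, 8571047 to 8575451, plus strand, 3900 exon bases) encode jumonji-domain histone demethylases, that of jmjd-3.1 acting on H3K27. In lin-40(yth27), jmjd-1.2 had 33.8, 30.9 and 27.6 CPM on cco-1 RNAi, against 36.8, 34.5 and 32.7 CPM on EV. In WT it had 33.3, 39.4 and 35.4 CPM on cco-1 RNAi, against 29.9, 28.8 and 31.3 CPM on EV. WT on EV lay below both WT on cco-1 RNAi and lin-40(yth27) on EV without overlap, which is the pattern met-2 also had. The log2 fold change was −0.17 in lin-40(yth27) (95% interval −0.42 to 0.07, adjusted p = 0.605) and 0.27 in WT (95% interval 0.02 to 0.51, unadjusted p = 0.0363, adjusted p = 0.201). The difference of the responses was −0.44 (standard error 0.16, 95% interval −0.78 to −0.09, unadjusted p = 0.0179, adjusted p = 0.410).

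In lin-40(yth27) animals, jmjd-3.1 had 20.9, 22.5 and 16.2 CPM on cco-1 RNAi, against 27.3, 24.1 and 22.0 CPM on EV. In WT it had 26.5, 19.1 and 24.8 CPM on cco-1 RNAi, against 30.7, 23.1 and 23.6 CPM on EV. It was the gene with the lowest estimate in lin-40(yth27), at −0.30 (standard error 0.18, 95% interval −0.68 to 0.09, adjusted p = 0.552), with an overlap of 22.5 CPM on cco-1 RNAi over 22.0 CPM on EV. In WT the estimate was −0.14 (95% interval −0.52 to 0.25, adjusted p = 0.703).

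**Figure D3:**
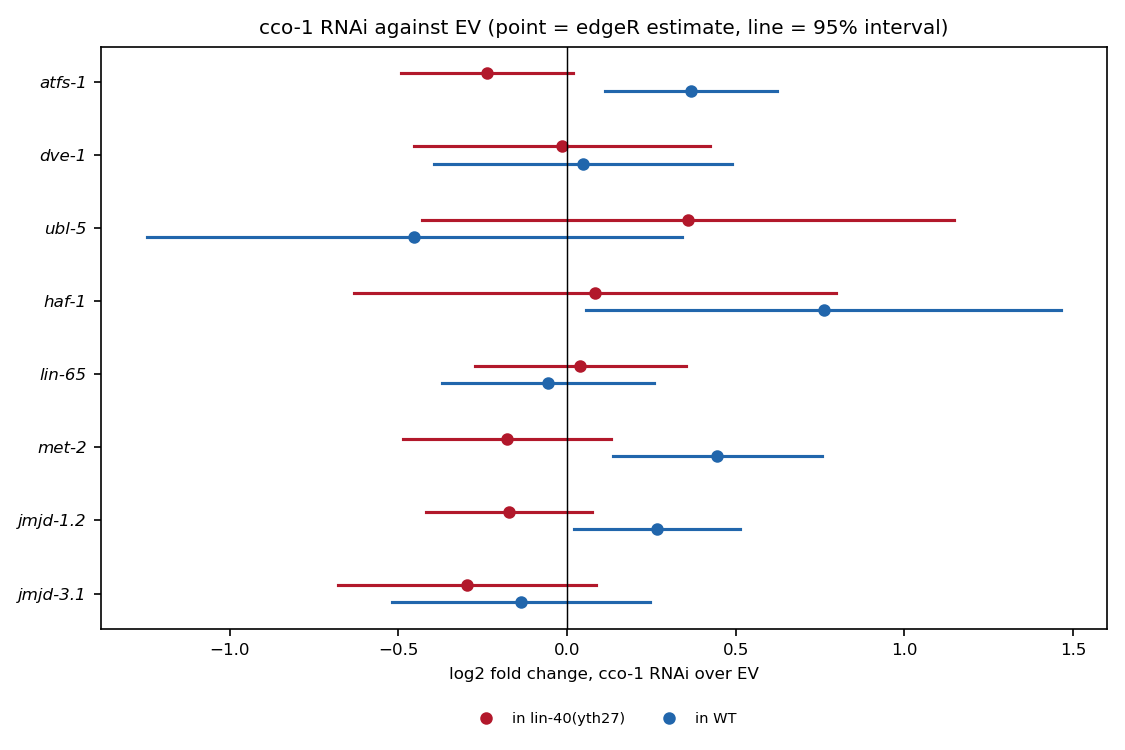
Log2 fold change of each regulator, cco-1 RNAi over EV, in lin-40(yth27) and in WT, with 95% intervals from edgeR. In WT the intervals of atfs-1, haf-1, met-2 and jmjd-1.2 lie above 0 before adjustment, and in lin-40(yth27) all 8 intervals include 0.

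Counted over the 8 genes, the responses to cco-1 RNAi read as follows. In lin-40(yth27) 0 of 8 passed with edgeR, with 1.16% of all genes tested passing. None had an unadjusted p under 0.05 (11.9% of all genes), 3 estimates were above 0 and 5 below, and DESeq2 also called 0. The median was −0.09 for the regulators and −0.03 for all genes. No regulator had its 3 lin-40(yth27) libraries on cco-1 RNAi all above those on EV (11.1% of all genes) or all below (9.71%).

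In WT 0 of 8 passed in the main edgeR model, where 6.25% of all genes did, and DESeq2 called 1 of 8 and 1427 of all genes. An unadjusted p under 0.05 was reached by 4 (atfs-1, haf-1, met-2 and jmjd-1.2), against 20.8% of all genes. The same 4 were higher on cco-1 RNAi in all 3 libraries (11% of all genes), and ubl-5 was lower in all 3 (13.3% of all genes). The median was 0.16 for the regulators and 0.06 for all genes. The difference between the genotypes passed for 0 of 8 and for 0% of all genes in the main edgeR model, and DESeq2 called 0 of 8 and 55 of all genes. An unadjusted p under 0.05 was reached by 3 (atfs-1, met-2 and jmjd-1.2), against 11.4% of all genes, and the median was −0.30 for the regulators and −0.04 for all genes. The 2 RNAi comparisons and the difference share their libraries, so these are not separate pieces of evidence.

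Read against WT on the same bacteria, lin-40(yth27) showed no regulator past the threshold with edgeR. On EV 0.377% of all genes passed, and 2 of 8 (dve-1 and met-2) had an unadjusted p under 0.05, against 15.0% of all genes. DESeq2 called 0 of 8. The 3 lin-40(yth27) libraries were all above WT for dve-1, met-2 and jmjd-1.2 (13.4% of all genes) and all below for none (13.1%). With the title number as a block on EV, 9 genes passed in place of 56, and no regulator was among them. On cco-1 RNAi 0.626% of all genes passed, and 2 of 8 (atfs-1 and haf-1) had an unadjusted p under 0.05, against 15.6% of all genes. DESeq2 called 1 of 8 (atfs-1) and 391 of all genes there. The 3 lin-40(yth27) libraries were all below WT for atfs-1 and haf-1 (7.34% of all genes) and all above for none (9.85%). The medians of the 8 were 0.07 on EV and −0.23 on cco-1 RNAi, and those of all genes 0.03 and −0.02.

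**Figure D4:**
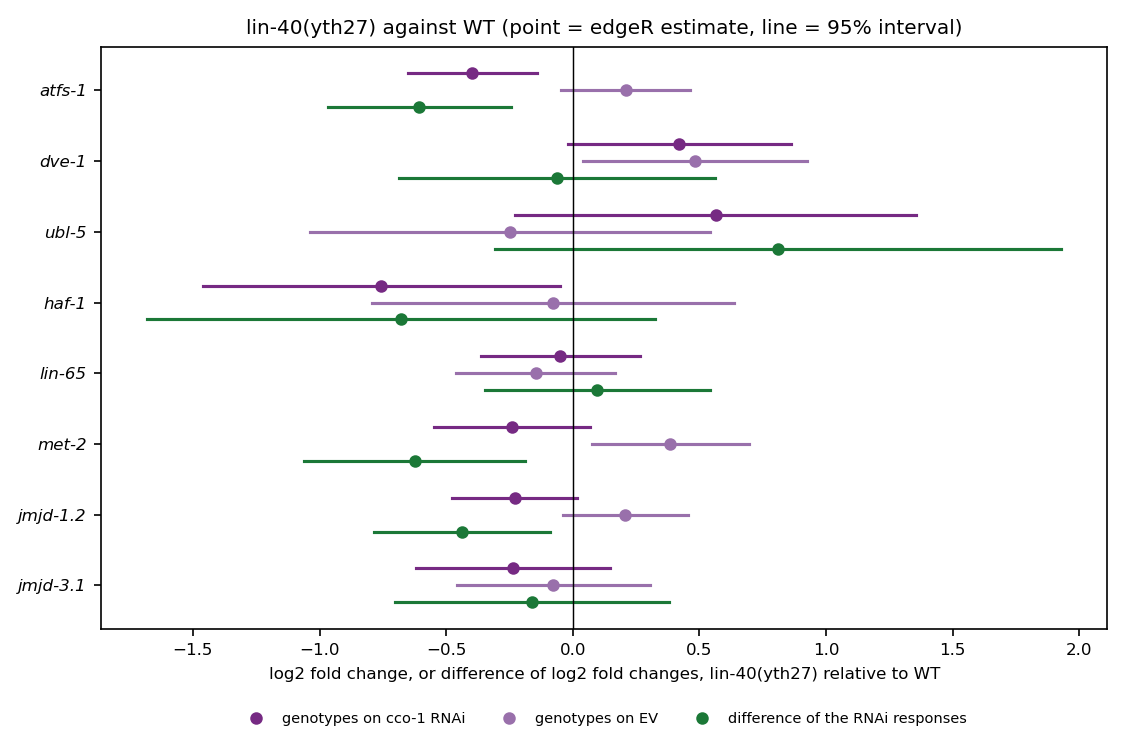
Log2 fold change of each regulator, lin-40(yth27) over WT, on cco-1 RNAi and on EV, and the difference of the RNAi responses between the genotypes, with 95% intervals from edgeR. For atfs-1 the value on cco-1 RNAi is −0.40 and the difference of responses −0.61, and for dve-1 both genotype values lie above 0.

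Values near 0 depended on the scaling. With library totals in place of TMM, all genes tested had a median of −0.18 in lin-40(yth27) and 0.19 in WT, and of −0.31 for the difference. Totals shift all genes of a comparison nearly alike, so values relative to the median of all genes come out close by construction: in WT atfs-1 lay at 0.31 with TMM and 0.31 with totals, met-2 at 0.39 and 0.38, and haf-1 at 0.70 and 0.69. For the difference, atfs-1 lay at −0.57 and −0.56, met-2 at −0.59 and −0.57, and ubl-5 at 0.85 and 0.76. The estimates of haf-1 and lin-65 in lin-40(yth27), of lin-65 and jmjd-3.1 in WT, of lin-65 in the difference, and of haf-1 and jmjd-3.1 between the genotypes on EV had the opposite sign with totals, and none of these passed with either scaling.

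The targets of the pathway were set beside its regulators. Of 11 listed UPRmt effectors (mitochondrial chaperones, proteases and other genes known to be induced), 10 were tested, and hsp-10 was not matched by symbol. In lin-40(yth27) 2 of 10 rose and 0 fell, where 1.16% of all genes passed, all 10 estimates were above 0, and the median was 0.38 against −0.03 for all genes. They were timm-23, for a subunit of the inner membrane import channel (0.94, standard error 0.16, adjusted p = 0.0187), and gpd-2, for a glycolytic enzyme (0.90, standard error 0.17, adjusted p = 0.0341). In WT 1 of 10 rose and 0 fell, where 6.25% of all genes passed, 9 estimates were above 0, and the median was 0.28 against 0.06 for all genes. It was dnj-10, for a mitochondrial DnaJ protein (0.71, standard error 0.18, adjusted p = 0.0393). An unadjusted p under 0.05 was reached by 7 of 10 effectors in lin-40(yth27), against 11.9% of all genes. In WT it was reached by 4 of 10, against 20.8% of all genes. The call of timm-23 was lost when any of the 3 lin-40(yth27) EV libraries (adjusted p 0.0773 to 0.108) or replicate 3 on cco-1 RNAi (adjusted p = 0.0571) was left out. That of gpd-2 held only without WT replicate 1 on cco-1 RNAi or on EV (adjusted p 0.0209 to 0.173 over the 12 fits with a library left out). That of dnj-10 held only without replicate 1 or 3 of lin-40(yth27) or replicate 2 of WT on cco-1 RNAi (adjusted p 0.0175 to 0.112), and was lost with library totals (adjusted p = 0.0677) and on the 6 WT libraries alone (adjusted p = 0.0851). In WT timm-23 also passed in 6 of its 10 alternatives (adjusted p 0.00233 to 0.101 over the 10), the title block among them (adjusted p = 0.0448). gpd-2 passed there in 4 of 10 (adjusted p 0.00554 to 0.180), with library totals, the 10 CPM filter, the short-name block and the block in WT alone, so the count of 1 in WT turned on the fit.

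The marker chaperones hsp-6 and hsp-60, named here after their values were seen, did not pass. hsp-6 had 1019, 1143 and 1166 CPM in lin-40(yth27) animals on cco-1 RNAi, against 793, 795 and 724 CPM on EV (0.53, 95% interval 0.08 to 0.97, adjusted p = 0.324). In WT it had 1461, 1194 and 1097 CPM on cco-1 RNAi, against 1436, 773 and 942 CPM on EV (0.25, 95% interval −0.19 to 0.69, adjusted p = 0.530). hsp-60 was at 0.20 in lin-40(yth27) (adjusted p = 0.666) and −0.25 in WT (adjusted p = 0.388). No effector passed in the other 3 comparisons. Their median was −0.28 between the genotypes on EV, with 8 of 10 estimates below 0, and −0.09 on cco-1 RNAi.

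A list of 18 other UPRmt regulators, such as kinases, Wnt pathway genes and SUMO enzymes, had 0 of 18 past the threshold in every comparison in the main edgeR model. The smallest p in WT belonged to baz-2, for a bromodomain protein (0.85, standard error 0.25, adjusted p = 0.0670), and ulp-4, for a SUMO protease (0.52, standard error 0.16, adjusted p = 0.0749). Both passed in WT with the replicate block by title number, which pairs the WT libraries (adjusted p = 0.0400 for baz-2 and 0.0319 for ulp-4). baz-2 passed in 4 of its 9 alternatives, the 3 blocks and DESeq2 (adjusted p 0.0116 to 0.0890 over the 9), and the difference between the genotypes passed for it with the short-name block (adjusted p = 0.0370). ulp-4 passed in 5 of its 10, the 3 blocks, library totals and the 10 CPM filter (adjusted p 0.0129 to 0.158 over the 10). The alternatives were read for these 2 genes of the list alone. The median of the list was −0.08 in lin-40(yth27) and 0.19 in WT, and in the 5 comparisons between 1 and 4 of its genes had an unadjusted p under 0.05, where 11.4% to 20.8% of all genes did. Of 13 genes that act with MET-2 and the demethylases on H3K9 and H3K27 methylation, 11 were tested and 0 passed in any comparison, and 1 had an unadjusted p under 0.05, on cco-1 RNAi between the genotypes, where 15.6% of all genes did. The smallest p in WT belonged to mes-2, for the H3K27 methyltransferase (0.29, adjusted p = 0.248), and hpl-1, for a heterochromatin protein 1 homolog (−0.36, adjusted p = 0.394). The median was −0.09 in lin-40(yth27) and 0.10 in WT.

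**Figure D5:**
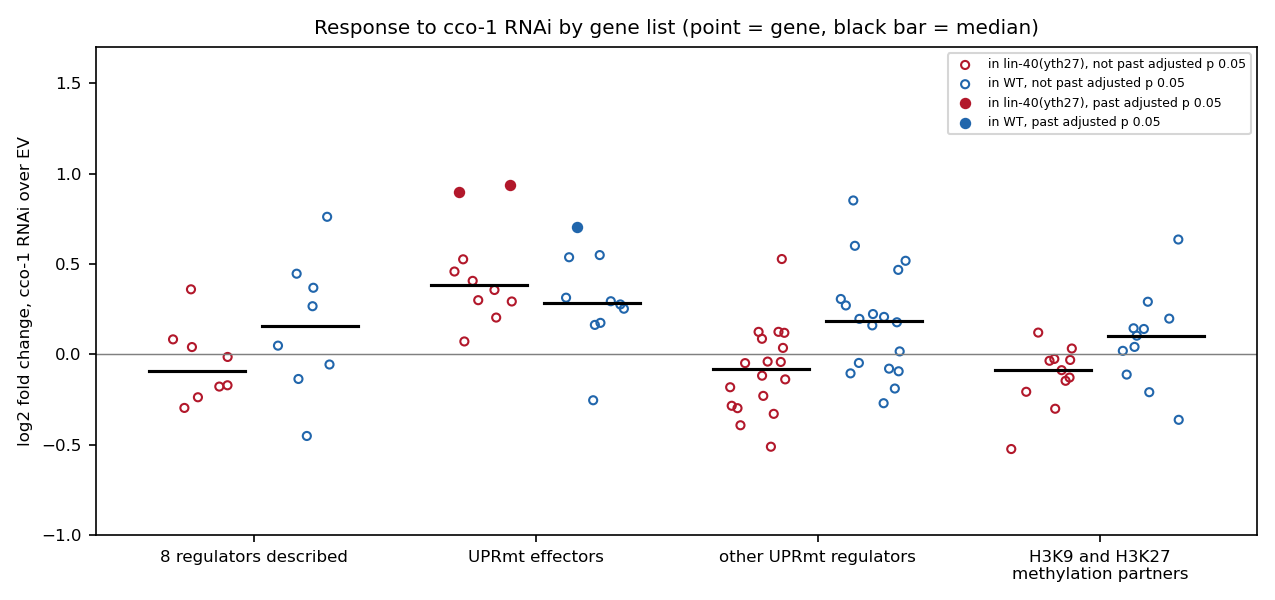
Log2 fold change upon cco-1 RNAi for the 8 regulators, 10 UPRmt effectors, 18 other regulators and 11 H3K9 and H3K27 methylation partners, in lin-40(yth27) and in WT. Each point is a gene, filled points passed the threshold and black bars are medians. All 10 effectors lie above 0 in lin-40(yth27), and the medians of the other 3 lists are below 0 in lin-40(yth27) and above 0 in WT.

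Across the 12 libraries, some regulators moved together. The Pearson correlation of log2 CPM was 0.79 between met-2 and jmjd-1.2, 0.74 between atfs-1 and jmjd-1.2 and 0.68 between atfs-1 and met-2. After the group means were taken out, these were 0.52, 0.27 and 0.30. ubl-5 ran against met-2 (−0.77, and −0.85 within groups) and against jmjd-1.2 (−0.72, and −0.67 within groups). The highest value of ubl-5 was with lin-65 (0.40, and 0.41 within groups). These are descriptions over 12 libraries, which share their groups and scaling factors.

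For each regulator the 2 transcripts with the most similar course were taken from 7501 genes with a mean of at least 10 CPM. For atfs-1 they were daf-15, which encodes the Raptor subunit of TORC1 (0.91), and sax-2 (0.91). For dve-1 they were T01D1.3 (0.91) and noca-2 (0.90), and for haf-1 the nuclear hormone receptor gene nhr-8 (0.90) and chn-1, for a ubiquitin ligase (0.88). For ubl-5 they were T22D1.3 (0.93) and ulp-2, for a SUMO protease (0.89). For met-2 they were sin-3, for a histone deacetylase corepressor (0.93), and vms-1 (0.93). For jmjd-1.2 they were noca-1, for a microtubule organiser (0.97), and rod-1, for a kinetochore protein (0.96). For jmjd-3.1 they were sftb-1, for a splicing factor (0.92), and crm-1 (0.90), and for lin-65 ttm-1, for a zinc transporter (0.82), and nhr-17 (0.79). Each value is a Pearson correlation of log2 CPM over the same 12 libraries, and being the highest of many it is a description only.

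Transcripts of other tissues and stages also differed between the libraries, with no listed marker at 0 in any group. The 6 oocyte markers summed to 408 to 434 CPM in lin-40(yth27) animals on cco-1 RNAi, 373 to 622 CPM in lin-40(yth27) on EV, 122 to 879 CPM in WT on cco-1 RNAi and 108 to 429 CPM in WT on EV. All 6 estimates were above 0 in WT upon cco-1 RNAi (median 0.86), below 0 in lin-40(yth27) (median −0.34) and above 0 between the genotypes on EV (median 1.11), and none passed. Medians of the 8 sperm markers had the same directions (0.54 in WT, −0.17 in lin-40(yth27), 0.29 between the genotypes on EV). So did the estimates of atfs-1, met-2, jmjd-1.2 and dve-1, the last nearly level upon cco-1 RNAi. Those of ubl-5, haf-1, lin-65 and jmjd-3.1 did not. The WT response and the comparison on EV share the WT libraries on EV, and a link of markers and regulators was not tested. Replicate 1 was lowest in both WT groups for oocyte sums (122 and 108 CPM) and for met-2 (23.7 and 16.0 CPM, cco-1 RNAi first). For atfs-1 replicate 1 was highest in both (104 and 80.6 CPM). For jmjd-1.2 replicate 1 was lowest with cco-1 RNAi (33.3 CPM) but not on EV (29.9 CPM, against 28.8 CPM in replicate 2). The 8 sperm markers summed to 154 to 231, 163 to 236, 77.3 to 409 and 70.4 to 274 CPM in the same order of groups, with replicate 1 lowest in both WT groups, as for oocyte markers.

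The 6 markers of hypodermis and molt summed to 1055 to 1450 CPM in lin-40(yth27) animals on cco-1 RNAi, 1197 to 1366 CPM in lin-40(yth27) on EV, 825 to 1161 CPM in WT on cco-1 RNAi and 1540 to 2092 CPM in WT on EV. In WT 5 of 6 fell upon cco-1 RNAi (median −0.94), and in lin-40(yth27) none passed (median −0.14). The 4 markers of the adult stage summed to 862 to 2228, 4959 to 6012, 195 to 3585 and 871 to 3121 CPM in the same order of groups, in libraries labelled L4. None of the 4 passed in any comparison. Between the genotypes on EV 3 estimates were above 0 and 1 below (median 1.51). On EV vit-2 had 2049 to 2461 CPM in lin-40(yth27) and 188 to 1163 CPM in WT. The other way went bli-1, with 169 to 284 CPM in lin-40(yth27) and 318 to 585 CPM in WT. The 8 germline markers summed to 800 to 853, 793 to 962, 646 to 979 and 824 to 940 CPM in the same order of groups. In WT upon cco-1 RNAi 5 of their 8 estimates were above 0 and 3 below, with a median of 0.09 against 0.06 for all genes. Only glh-1, for a germ granule helicase, passed there, where 6.25% of all genes did, and it fell (−0.53, adjusted p = 0.0296). Intestine markers (6) summed to 2725 to 3670, 2622 to 3013, 2661 to 4034 and 3305 to 4578 CPM in the same order of groups. Body muscle markers (5) summed to 6031 to 11258, 7905 to 10550, 7216 to 10224.5 and 7763 to 13351 CPM. Neuron markers (6) summed to 416 to 507, 346 to 439, 363 to 460 and 344 to 405 CPM. No marker of these 3 tissues passed in any comparison. The part of these differences in tissue and stage in the values of the regulators was not tested.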

How the data were processed

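RNA of whole L4 worms was sequenced as paired ends in 12 libraries, 3 in each of 4 groups taken from the sample labels. The authors trimmed reads with SeqPrep and Sickle, aligned them with TopHat, keeping unique matches, and quantified genes with RSEM. The deposited values were taken as RSEM's expected counts without normalization, which was read from the values (19382 are not whole, and totals differ) and is not stated. The alignment is said to have used an orientation mode. The build, the annotation, the RSEM version and whether counting used strand were not found in the sources used here. Genes were matched by WormBase identifier to Ensembl release 115 of WBcel235, which gave positions and exon lengths.

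Expected counts were rounded, and 14867 genes kept by filterByExpr were scaled by TMM (factors 0.796 to 1.10). All were fitted in R 4.3.3 by the quasi-likelihood test of edgeR 4.0.16 (limma 3.58.1) over 12 libraries, with BH adjustment at 0.05. Standard errors and 95% intervals were derived from the F statistic of each fold change. Log2 CPM used a prior count of 2. Figures were drawn in Python 3.11.15 with matplotlib 3.10.9. The script was tested on simulated data. Totals had a median of 20230217, and replicates differed by more than sampling noise (chi-square per degree of freedom 4.40 to 104, genes with at least 20 counts in a pair). No row lacked a name, and 0 columns belonged to other samples.

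The regulators, the lists and the tests were chosen with earlier results of these data known. Named genes are the 8 regulators, cox-5B and lin-40, the 2 genes most correlated with each regulator, and in each list the genes that passed or, where none did, the 2 with the smallest p in WT. Any other is said to be named after its values were seen, markers apart. Alternatives were median-of-ratios, upper quartile and library total scaling, no filter (at least 1 count) or 10 CPM in 3 libraries, DESeq2 1.42.0, the 6 libraries of a comparison alone, a replicate block by title or short-name number, and each library left out. A block in WT alone was added after seeing the data.

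Same-numbered WT libraries on cco-1 RNAi and EV deviated together from their group means (correlations 0.723, 0.588 and 0.288 over genes for numbers 1, 2 and 3), so the numbers were taken to pair them. In lin-40(yth27) the title numbers gave −0.324, −0.192 and −0.113, and the short-name numbers 0.290 for number 2 and −0.113 for number 4, so neither was taken to pair those libraries. Between the genotypes both numberings gave −0.376, −0.216 and −0.168 for the libraries on cco-1 RNAi. For those on EV the title numbers gave 0.467, 0.278 and 0.169, and the short-name numbers −0.426 for number 2 and 0.169 for number 4.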

Additional observations from a re-analysis of the deposited data

How the results depend on the processing

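The count of regulators past the threshold was 0 in every comparison in the main edgeR model, and kept that value under all but these alternatives, whose cause was not tested. In WT upon cco-1 RNAi it was 1 with a filter of 10 CPM in 3 libraries (atfs-1, where ubl-5 and haf-1 were not tested), 1 with DESeq2 (met-2) and 2 with the replicate block by short-name number. For the difference between the genotypes it was 3 with the replicate block by short-name number, and for lin-40(yth27) against WT on cco-1 RNAi it was 1 with DESeq2 (atfs-1). With the replicate block by title number it was 0 in all 5 comparisons, and with a block in WT alone, chosen after seeing the data, 0 in the 3 comparisons of the RNAi response (WT adjusted p = 0.0527 for met-2 and 0.0574 for atfs-1, edgeR). With each of the 12 libraries left out the count ran from 0 to 0 in every comparison. In WT the adjusted p with a library left out was 0.0710 to 0.260 for atfs-1 and 0.0575 to 0.242 for met-2.

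The number of all genes past the threshold moved further. In lin-40(yth27) it was 173, but 99 with library totals, 391 with DESeq2, 375 with the short-name block and 390 with the block in WT alone. In WT it was 929, but 1427 with DESeq2, 274 on the 6 libraries alone, 2366 with the short-name block and 1631 with the block in WT alone. For the difference it was 0, but 55 with DESeq2 and 1, 1023 and 7 with the title, short-name and WT blocks. On EV it was 56, but 20 with the 10 CPM filter, 451 with DESeq2, 37 on the 6 libraries and 9 and 1 with the title and short-name blocks. On cco-1 RNAi it was 93, but 39 with totals, 26 with the 10 CPM filter, 391 with DESeq2, 4 on the 6 libraries and 2 and 1 with those blocks. Of the calls with TMM and with totals, 123 of 173 and 48 of 99 were higher in lin-40(yth27) upon RNAi, 323 of 929 and 318 of 628 in WT, 30 of 56 and 33 of 47 between the genotypes on EV, and 74 of 93 and 22 of 39 on cco-1 RNAi. With a library left out the 5 counts ran from 26 to 209, 292 to 1039, 0 to 0, 6 to 92 and 6 to 258. For haf-1 and ubl-5, with as few as 29 and 51 counts in a library, counting noise was 13.9% and 9.72% and the estimated replicate spread 26.6% and 31.4%.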
